A study of Homo sapiens with 2 samples.

Results

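The Hippo pathway genes described here are 10 in number: the kinases LATS1, LATS2, STK3 and STK4 with the scaffold SAV1, the effectors YAP1, WWTR1, TEAD1 and TEAD4, and the YAP-binding protein AMOTL2. They are 10 of the 19775 genes that at least 1 probe set names alone. A probe set is a cluster of short oligonucleotides that together measure 1 piece of a transcript, and 34 of the 54675 probe sets on the array were assigned by the platform annotation to 1 of these genes and to no other. No probe set named a member together with another gene. The genes were chosen by pathway with the log2 differences of these same 2 arrays already known, that of LATS2 among them, so the differences below describe the arrays and test nothing.

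The Hippo pathway is a kinase cascade that restrains organ growth and responds to cell contact and cell shape. The MST kinases, encoded by STK4 (MST1) and STK3 (MST2), bind the scaffold SAV1 and activate the kinases LATS1 and LATS2. The LATS kinases phosphorylate the coactivators YAP and TAZ (encoded by YAP1 and WWTR1), which are then kept in the cytoplasm or degraded. Unphosphorylated YAP and TAZ enter the nucleus and bind TEAD transcription factors, and LATS2 and AMOTL2 are known as both inhibitors of YAP and genes that it switches on. In the stomach, YAP and TAZ activity is known for its part in epithelial regeneration and in gastric cancer. Most of this control acts on phosphorylation and location of proteins, which RNA levels do not measure.

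The study compared MKN28 cells overexpressing Sox2, an HMG-box factor that maintains pluripotent cells and patterns the foregut, with control MKN28 cells. MKN28 is an established human gastric cancer line, listed as a misidentified derivative of the gastric line MKN74. Per the labels' protocols, the Sox2 cells carried a Sox2 lentivirus with a puromycin resistance gene and were selected with puromycin. The labels do not say which virus or drug, if any, the control cells received, so virus, selection and Sox2 cannot be told apart. Each of the 2 samples, 1 labelled Sox2 and 1 labelled control, was measured on 1 Affymetrix array. With no replicates no p-value is given. The RNA came from whole cultures, in which more cells expressing a gene and more RNA per cell cannot be told apart.

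Intensities are in arbitrary linear units. Their median was 34.25 in the Sox2-labelled array and 34.26 in the control-labelled array, and the 95th percentile was 162 and 156. The label could not be checked by its target: the 4 SOX2 probe sets differed by between -0.46 and 0.49 on the log2 scale, Sox2 minus control, and the brightest read 172 in the Sox2-labelled array and 123 in the control. Both arrays are for that reason called by label, and every direction rests on these labels. Of the 5 epithelial markers examined, EPCAM was at 4.96 and 6.32 in the arrays labelled Sox2 and control, at the 4.91st percentile of all probe sets. CDH1, KRT8, KRT18 and KRT19 lay above the median, from the 56.1st percentile (KRT19) to the 86.0th (CDH1). Markers of other cells ran from the 38.4th (PTPRC) to the 99.8th (VIM), with the endothelial PECAM1 and CDH5 at the 82.4th and 78.6th. By percentile the epithelial markers did not stand above those of other cells. Probes bind their targets with unequal strength, so these percentiles do not rank the markers against each other or tell the cell type. The summed intensity of the 5 epithelial markers was 244 in the Sox2-labelled array and 268 in the control. That of 7 fibroblast, leukocyte and endothelial markers was 6683 and 5149, of which VIM alone made 5833 and 4288; the other 6 summed to 850.1 and 861, with 2 higher and 4 lower in the Sox2-labelled array. No marker of either list was at 0. What part these levels have in the differences below was not tested. The only spread the data offer is technical: from 3471 genes with 2 probe sets at usable brightness, a single probe set's log2 difference had a robust SD of 0.28, which leaves out variation between cultures and arrays.

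Most Hippo pathway probe sets were dim. Only 12 of the 34 reached the median of all values, 34.25, in at least 1 array. By their brightest probe sets 8 of the 10 genes did so; LATS1 and STK3 did not. STK4 and TEAD1 reached it in the Sox2-labelled array alone and YAP1 in the control alone. Levels of different genes cannot be ranked by these intensities, since the probes bind their targets with unequal strength.

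**Figure D1:**
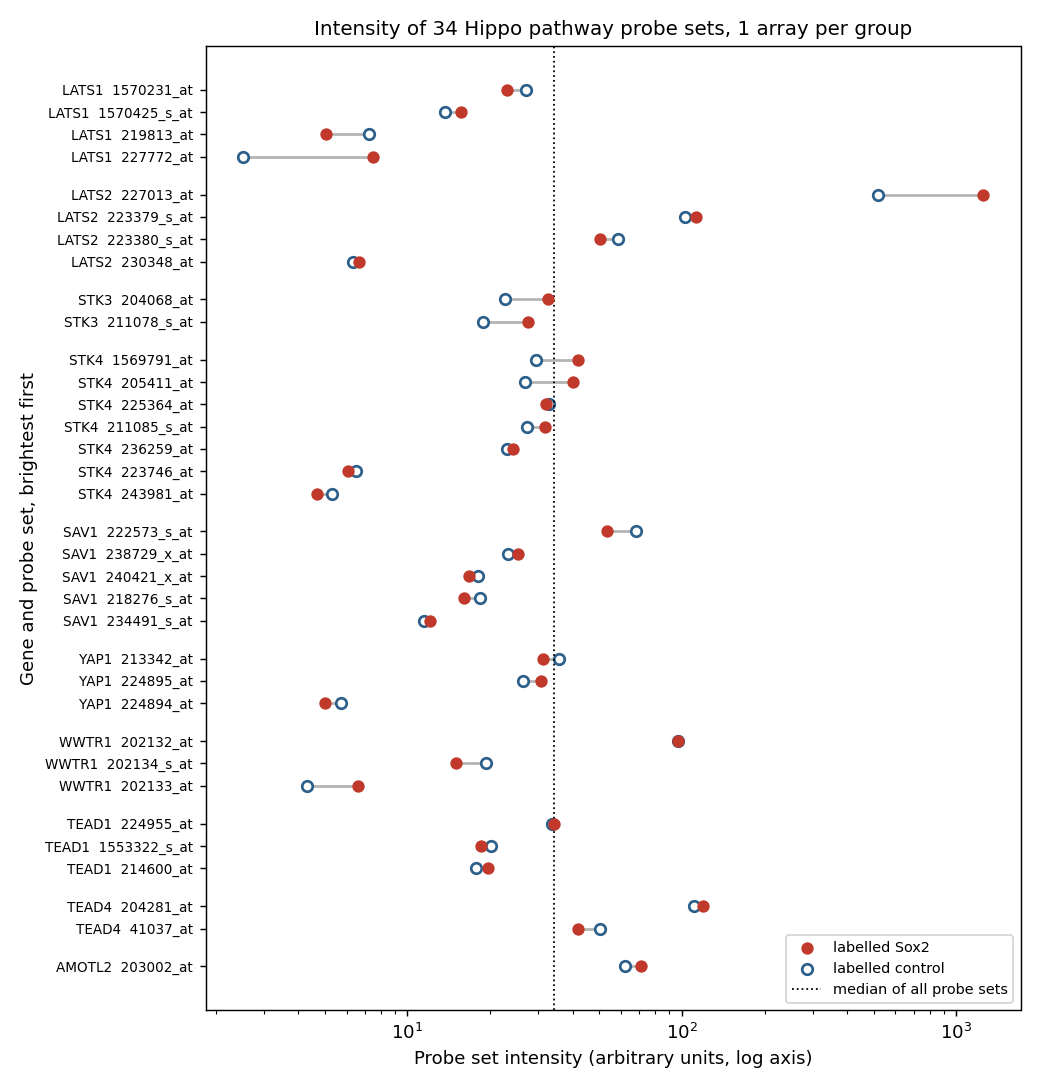
Intensity of each of the 34 probe sets (log axis, arbitrary units) in the Sox2-labelled array (filled red) and the control-labelled array (open blue), with the probe sets of a gene ordered from brightest to dimmest; where the values nearly coincide, as for the brightest WWTR1 probe set, the red point covers the blue one. The probe set 227013_at of LATS2, at 1254.99 and 518.41, stands far to the right of all others, and most probe sets lie left of the dotted line at the median of 34.25.

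LATS2 was the 1 member at least 2-fold different by its brightest probe set, and that difference was not shared by its other probe sets. LATS2 is the LATS kinase whose gene is itself switched on by YAP and by p53. Its probe set 227013_at read 1254.99 in the Sox2-labelled array and 518.41 in the control, 2.42-fold higher (log2 difference 1.28). Among genes past the filter, 2.05% were higher there by 2-fold or more, and LATS2 was at rank 102 from the highest of 14253.

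The second LATS2 probe set, 223379_s_at, read 112 in the Sox2-labelled array and 103 in the control, a difference of 0.13 on the log2 scale. The third, 223380_s_at, read 50.47 and 58.73, which gives a log2 difference of -0.22, and so on the other side. The fourth, 230348_at, was near the bottom of the array at 6.67 and 6.35 (0.071). The LATS2 probe sets thus lay on both sides of 0, and 1 of the 4 carried the 2-fold difference.

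The brightest LATS2 probe set was the 451st brightest of all 54675 by its mean over the arrays. Large upward differences were common at such levels: of the 303 probe sets within 0.5 of it on the log2 scale of mean intensity, 45 (14.9%) were higher by 2-fold or more. Its level also stood apart from the rest of the gene. The brightest LATS2 probe set was 124-fold brighter than the dimmest, a wider span than in 98.4% of the 1393 genes with 4 probe sets, whose median span was 5.33-fold. Which stretch of the LATS2 transcript each probe set reads was not used here.

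Near the annotated LATS2 start lie matches to the short cores that the DNA-binding domains of TEAD and SOX proteins recognise. The 30 bases that hold both are shown because LATS2 had the largest difference at usable brightness. They are read from RefSeq's GRCh38.p14 table at chr13:21061552-21061581, minus strand, 5′ to 3′, with both cores in capitals.
LATS2: ccgtGGAATGccaACAATGtagcgaatgtc
The TEAD core searched was GGAATG and the SOX core CATTGT, each on both strands. The SOX core lies on the opposite strand and so reads ACAATG, the cores do not overlap each other, and they begin at positions 10 and 19 counted from the start. The 2 cores were chosen after the sequences had been seen.

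LATS1, the paralogue of LATS2 with the same role in phosphorylating YAP and TAZ, had 4 probe sets, all below the median of the array. The brightest, 1570231_at, read 22.97 in the Sox2-labelled array and 27.11 in the control, a difference of -0.24 on the log2 scale. The next, 1570425_s_at, read 15.64 and 13.72 (0.19), and 219813_at read 5.06 and 7.24 (-0.52). The dimmest, 227772_at, read 7.52 in the Sox2-labelled array and 2.51 in the control, a difference of 1.58 on the log2 scale. That is the largest difference on the log2 scale among the 34 probe sets, but it amounts to a few units of intensity.

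Among the dimmest 10% of all probe sets, where 227772_at lies, the middle 90% of log2 differences spanned -1.15 to 1.11 and the robust SD was 0.64. The LATS1 probe sets, too, lay on both sides of 0, with 2 above and 2 below. Their range of 2.10 on the log2 scale was wider than in 98.6% of the genes with 4 probe sets. No level of LATS1 could be read at usable brightness, and these values do not show that it was unchanged.

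Of the MST kinases, which differed less than LATS2 by their brightest probe sets, STK3 was read evenly and STK4 was not. STK3, which encodes MST2, had 2 probe sets on 1 side of 0 by nearly the same amount. Probe set 204068_at read 32.51 in the Sox2-labelled array and 22.68 in the control (log2 difference 0.52), and 211078_s_at read 27.42 and 18.90 (0.54). The gap between these differences, 0.017, was smaller than in all but 3.73% of the 5015 genes with 2 probe sets. In the same 5015 genes 50.8% had both probe sets on 1 side of 0. Both STK3 probe sets lay below the median of the array, and their differences stood near the 95.1st and 94.2nd percentiles of probe sets of like brightness.

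STK4, which encodes MST1, had 7 probe sets, of which 4 lay above 0 and 3 below. The brightest, 1569791_at, read 41.76 in the Sox2-labelled array and 29.39 in the control (log2 difference 0.51). The next, 205411_at, read 39.95 and 26.75 (0.58). These 2 reached the filter through the Sox2-labelled array alone, so they had to be higher there to be counted as past it.

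The other 5 STK4 probe sets had log2 differences between -0.18 and 0.21. Of them, 225364_at was nearly as bright as the first 2 and read 32.11 in the Sox2-labelled array and 32.80 in the control (-0.031). The median over all 7 was 0.072. A higher reading of STK4 in the Sox2-labelled array thus rests on its 2 brightest probe sets, while one of nearly the same brightness differed by -0.031.

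SAV1, the scaffold that holds the MST kinases together with LATS, was lower by its brightest probe set. Probe set 222573_s_at read 53.35 in the Sox2-labelled array and 68.20 in the control, 1.28-fold lower (log2 difference -0.35). Its 4 dimmer probe sets differed by between -0.20 and 0.12, with 2 above and 2 below 0. The median over all 5 was -0.11. The SAV1 probe sets all end in _s_at or _x_at, the array's marks for probe sets that may also bind other transcripts.

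**Figure D2:**
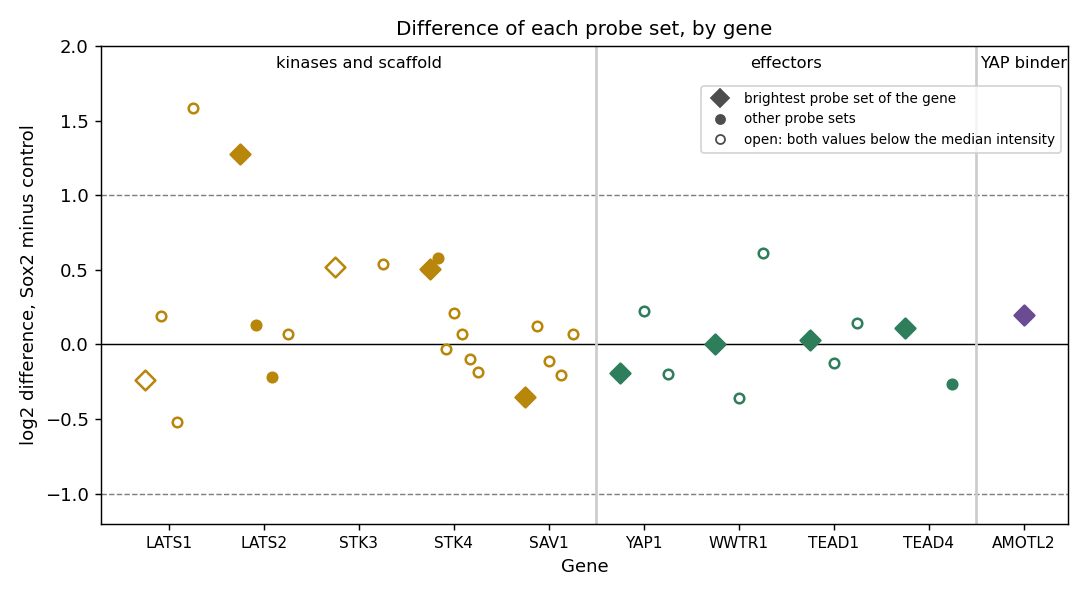
Log2 difference (Sox2-labelled minus control-labelled array) of each probe set by gene, with the brightest probe set of a gene as a diamond, the others as circles ordered by brightness, and open symbols where both values lie below the median of all probe sets. The dashed lines mark 2-fold; LATS2's brightest (1.28) and LATS1's dimmest probe set (1.58) are beyond them, and the effectors lie between -0.36 and 0.61.

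The effectors were nearly level between the arrays by their brightest probe sets, which differed by between -0.19 and 0.11 on the log2 scale. YAP1, the main coactivator, was read at 31.28 in the Sox2-labelled array and 35.65 in the control by 213342_at (-0.19). The next, 224895_at, read 30.73 and 26.26 (0.23), on the other side of 0, and the dimmest, 224894_at, read 5.00 and 5.74 (-0.20). No YAP1 probe set was brighter than 35.65 in either array, so YAP1 was read near or below the middle of all probe sets.

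WWTR1, which encodes the YAP paralogue TAZ, read 96.71 in the Sox2-labelled array and 96.56 in the control by 202132_at, a difference of 0.0022 on the log2 scale. Its dimmer probe sets went apart. Probe set 202134_s_at read 15.08 and 19.32 (-0.36), and 202133_at read 6.58 and 4.31 (0.61), the last a level at which 83.4% of probe sets of like brightness had a smaller or negative difference.

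TEAD1, a DNA-binding partner of YAP and TAZ, had differences of 0.031, -0.12 and 0.15 over its 3 probe sets. The brightest, 224955_at, read 34.32 in the Sox2-labelled array and 33.60 in the control. TEAD4, the TEAD family member often raised in gastric tumours, read 120 in the Sox2-labelled array and 111 in the control by 204281_at (0.11). A second TEAD4 probe set, 41037_at, also past the filter, read 41.82 and 50.19 (-0.26). No TEAD1 or TEAD4 probe set differed by more than the technical SD of 0.28.

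AMOTL2, an angiomotin-like protein that holds YAP at cell junctions and is itself a YAP target, had 1 probe set, 203002_at, at 71.07 in the Sox2-labelled array and 61.85 in the control. That is a log2 difference of 0.20, also under the technical SD, and with 1 probe set there is no second reading.

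**Figure D3:**
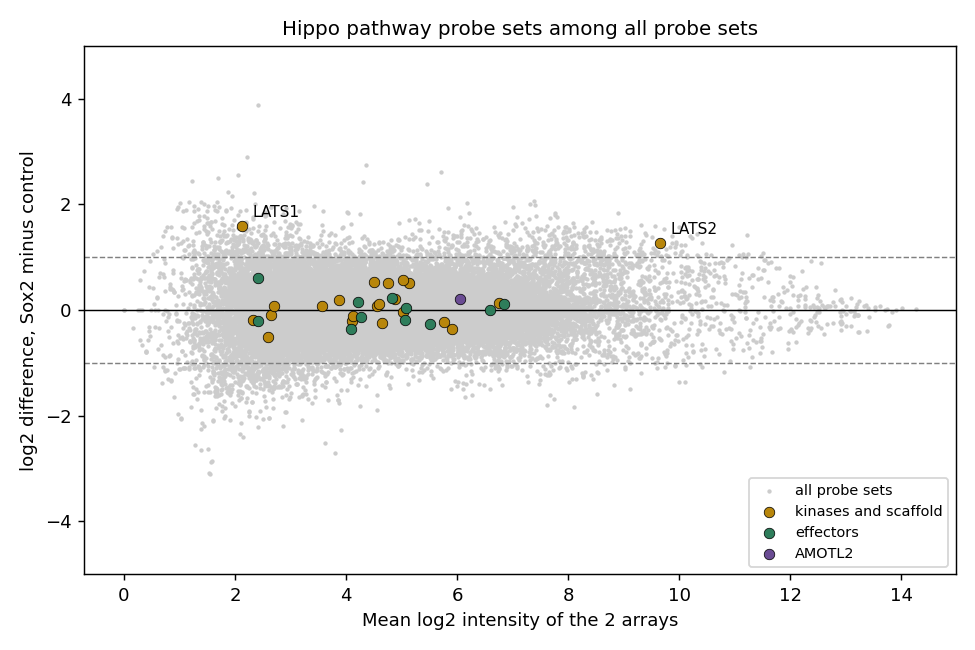
Log2 difference (Sox2 minus control) against the mean log2 intensity of the 2 arrays for all 54675 probe sets (grey) and the 34 Hippo pathway probe sets (coloured by role), with dashed lines at 2-fold. Beyond the upper line are 1 LATS2 probe set among bright probe sets and 1 LATS1 probe set in the dim and wide left part of the cloud.

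Set against the effectors, the kinases and their scaffold had a higher median difference by brightest probe sets and a wider spread, with genes on both sides of the effectors. By brightest probe sets the median log2 difference was 0.51 for the 5 genes of kinases and scaffold and 0.016 for the 4 effectors, a gap of 0.49. The 0.51 is the value of STK4, which passed the filter through the Sox2-labelled array alone. LATS1 and STK3 were below the filter. LATS2, STK3 and STK4 lay above the highest effector (TEAD4, 0.11), and LATS1 and SAV1 lay below the lowest (YAP1, -0.19). The gap was 0.12 without LATS2 and 0.11 when each gene took the median of its probe sets. Over all probe sets of each group it was 0.070. It was between 0.32 and 0.50 under the 6 other alternatives, which were the mean of probe sets past the filter, the omission of _x_at and _s_at probe sets, 3 normalizations and a pseudocount. Not all of these could test the gap. Median centring shifts every gene alike and cannot change it. The mean of probe sets past the filter left out LATS1 and STK3, and the omission of _x_at and _s_at probe sets left out SAV1, so they compare fewer genes. The leave-out of LATS2 and the value over all probe sets were added after seeing the data.

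The kinase probe sets counted here include those of the scaffold SAV1. Over all probe sets of each group, 13 of 22 kinase probe sets and 6 of 11 effector probe sets were above 0, against 49.9% of all probe sets that name 1 gene. At least 2-fold higher were 2 of 22 kinase probe sets and 0 of 11 effector probe sets, against 2.06% of all, and none of either group was 2-fold lower, against 1.23%. Of these 2, 227013_at of LATS2 was bright, while 227772_at of LATS1 read 7.52 in the Sox2-labelled array and 2.51 in the control. At 1.5-fold, 3 of the 34 probe sets (8.82%) were higher, against 7.29% of all, and none was lower, against 5.29%. The medians were 0.072 for the kinase probe sets and 0.0022 for the effector probe sets.

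Agreement between probe sets was weak for most members, and over probe sets of any brightness it was weak on these arrays in general. Of the 9 genes with several probe sets, STK3 alone had all of them on 1 side of 0. Probe sets of a gene are not independent replicates. Across the 5015 genes with 2 probe sets, with no filter on brightness, the differences of the pair correlated with a Pearson r of 0.092 and their mean levels with 0.24. Both probe sets of a pair were read on the same 2 arrays.

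The share of genes with all probe sets on 1 side was 50.8% for 2 probe sets, 27.4% for 3, 14.9% for 4, 9.49% for 5 and 1.17% for 7. The range of differences over a gene's probe sets was narrower than the median of genes with as many probe sets for STK3, STK4, SAV1, YAP1 and TEAD1. It was wider for LATS1, LATS2, WWTR1 and TEAD4. Of the 292 genes at least 2-fold higher by the brightest probe set, 192 had others past the filter, and in 151 of these (78.6%) the median of the others was above 0. For LATS2 that median was -0.045, and 37 of the 192 genes (19.3%) had one as low or lower.

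**Figure D4:**
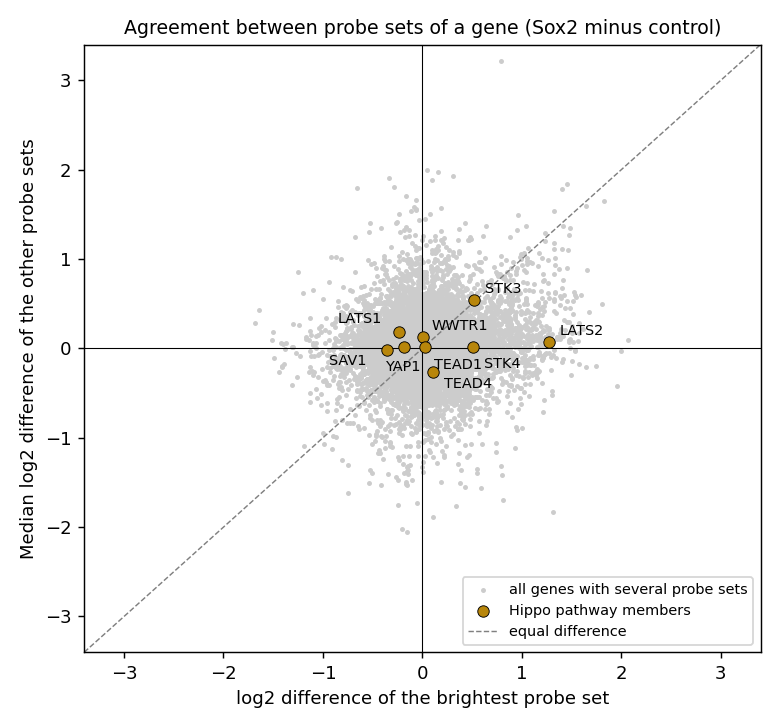
Log2 difference of the brightest probe set (horizontal) against the median log2 difference of the gene's other probe sets (vertical), Sox2 minus control, for all genes with several probe sets (grey) and the 9 such members (gold). STK3 lies on the line of equal difference at 0.52 and 0.54, while LATS2, at 1.28 and 0.071, and STK4, at 0.51 and 0.021, lie near the horizontal axis.

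Other genes of the pathway were taken from lists by role. Of 33 other upstream genes 30 had a probe set and 21 were past the filter: 2 were at least 2-fold higher, none lower and 19 under 2-fold, against 2.05% higher and 0.645% lower among all genes. Their median log2 difference by brightest probe sets was 0.16, against -0.0032 over all genes past the filter. It was 0.036 when each gene took the median of its probe sets. The 2 genes were STRN3 and SLMAP, subunits of the STRIPAK complex, which brings the phosphatase PP2A to the MST kinases and keeps them inactive.

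STRN3, a striatin that binds PP2A, read 769 in the Sox2-labelled array and 297 in the control by 215505_s_at (log2 difference 1.37), and 562 and 303 by 204496_at (0.89). Both STRN3 probe sets were bright and lay on 1 side of 0. SLMAP, the adaptor through which STRIPAK recognises MST kinases, read 182 in the Sox2-labelled array and 76.72 in the control by 225243_s_at (1.25). The other 3 SLMAP probe sets, all dim with values from 3.50 to 9.08, differed by 0.063, -0.52 and 0.30.

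Among probe sets within 0.5 of its log2 level, 14.7% of 577 were at least 2-fold higher for STRN3 and 1.87% of 5308 for SLMAP. With the _x_at and _s_at probe sets left out, neither gene was counted. PPP2R1A, the scaffold subunit of PP2A, differed by 0.10, at 532 in the Sox2-labelled array and 495 in the control. TAOK1, a kinase that activates MST kinases, read 656 and 351 by its brightest probe set (0.90), with a median of -0.024 over its 6. PPP2R1A and TAOK1 are named after their values were seen.

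Of the 6 other TEAD and vestigial-like genes, which encode further TEADs and cofactors that compete with YAP for them, 4 were past the filter and none reached 2-fold. Their median was -0.0078, and the largest difference was that of VGLL1 at 52.75 in the Sox2-labelled array and 56.21 in the control (-0.092). Of 23 genes commonly used as YAP and TAZ targets, 20 had a probe set, 16 were past the filter and none reached 2-fold by its brightest probe set, with 9 above and 7 below 0 and a median of 0.035. ASAP1, which encodes a GTPase-activating protein of ARF, had the largest difference of these, at 350 in the Sox2-labelled array and 205 in the control (0.77). Over the 5 ASAP1 probe sets the differences ran from -0.76 to 0.85 with a median of 0.18. Some dimmer probe sets of targets differed by 2-fold or more, in both directions. In DOCK5, a RAC exchange factor, 230207_s_at read 5.47 in the Sox2-labelled array and 35.55 in the control (-2.70), and passed the filter through the control alone. The brightest DOCK5 probe set differed by 0.13 and the median over its 8 was -0.0011. Below the filter, 202552_s_at of CRIM1 was higher in the Sox2-labelled array by 1.28, and 242137_at and 238447_at of RBMS3 by 1.21 and 1.14. DOCK5, CRIM1 and RBMS3 are named after their values were seen.

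The usual readouts of YAP activity were mostly dim. CCN1, a matricellular protein, read 152 in the Sox2-labelled array and 150 in the control by its brighter probe set (0.023) and 22.91 and 17.47 by the other (0.39). CCN2, its relative, read 7.40 and 5.61, and ANKRD1, an ankyrin repeat protein, 8.78 and 10.98. The CCN2 difference of 0.40 and the ANKRD1 difference of -0.32 lay at the 74.1st and 22.6th percentiles of probe sets of like brightness.

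**Figure D5:**
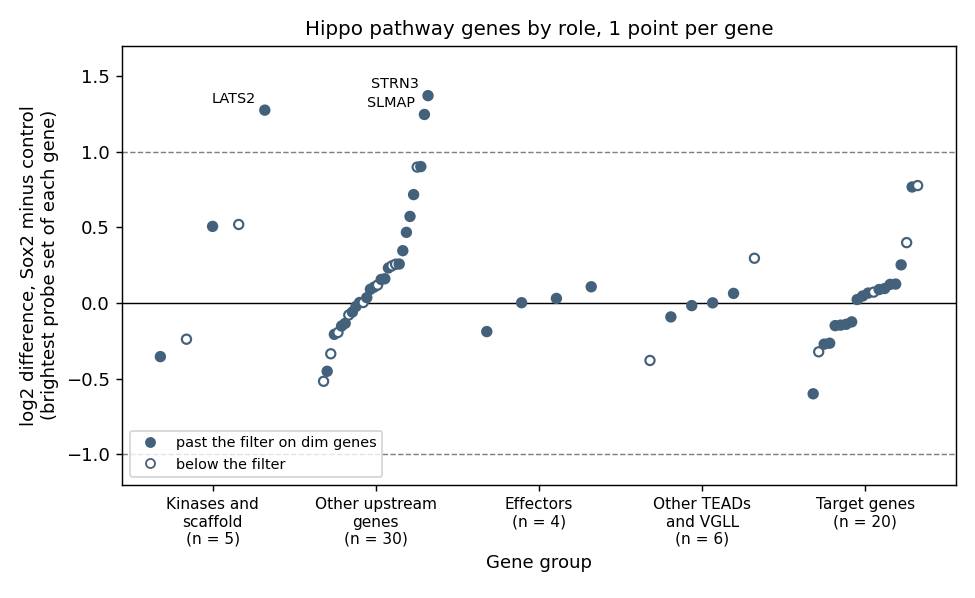
Log2 difference (Sox2 minus control) of the brightest probe set of each gene with a probe set, by role in the pathway, with open points for genes below the filter on dim genes and dashed lines at 2-fold. LATS2, STRN3 and SLMAP are the 3 genes beyond the upper line, none is beyond the lower, and the effectors lie within -0.19 and 0.11.

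The TEAD core GGAATG occurred in 3 of the 10 promoter windows found for 7 members, those of LATS2, YAP1 and AMOTL2, against 14.0% of all 35116 windows of 300 bases (250 before to 50 after a gene's start). The SOX core CATTGT occurred in 2 of the 10, in LATS1 and LATS2, against 10.8% of all. The YAP1 and AMOTL2 sites are shown, with that of LATS2 above, because these members had a TEAD core in their windows. The core is in capitals, and in AMOTL2 it lies on the opposite strand. The YAP1 site is at chr11:102110273-102110302, plus strand, with the first base of its core 162 bases before the start. The AMOTL2 site is at chr3:134374499-134374528, minus strand, with the first base of its core on the gene's strand 69 bases before the start, both in GRCh38.p14 from RefSeq.
YAP1: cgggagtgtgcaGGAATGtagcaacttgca
AMOTL2: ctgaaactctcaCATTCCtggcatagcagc
YAP1 and AMOTL2, with a TEAD core, differed by -0.19 and 0.20 by their brightest probe sets. LATS1, with a SOX core that is not shown, differed by -0.24 by its brightest probe set, which was below the filter. A match to such short letters describes the sequence and is not a binding site. STK3, TEAD1 and TEAD4 had no entry in the table.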

How the data were processed

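The authors deposited 1 intensity per probe set and array on a linear scale. RMA is the only tool named by the submitters' processing notes. Version, settings and last step of RMA, which usually ends in log2 values, were not stated there. No rescaling preceded the log2 step (lowest intensity 1), and each difference is the Sox2-labelled minus the control-labelled array. The median difference over all probe sets was -0.0027. Genes were named through the platform annotation, with symbols updated by gene identifier (19735 of 19777 matched). Each gene was represented by its brightest probe set over both arrays and passed the filter if its higher value reached 34.25, the median of all values, which 14253 of 19775 genes did. Genes at least 2-fold different were counted, with no test at 1 array per group. The members, lists and alternatives were chosen with earlier results of these data known. The text names all members, list genes at least 2-fold different (up to 4, or else the 1 with the largest difference past the filter), CCN1, CCN2, ANKRD1 and SOX2. It also names cell type markers and, after their values were seen, PPP2R1A, TAOK1, DOCK5, CRIM1 and RBMS3. The counting and the technical SD were tested on simulated data with the same noise at every brightness. On the real arrays the spread varied with brightness, which that simulation left out. The number of arrays limits the precision. Python 3.11.15, numpy 2.4.6, pandas 2.3.3, SciPy 1.17.1, statsmodels 0.14.6 and matplotlib 3.10.9 were used.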

Additional observations from a re-analysis of the deposited data

How the results depend on the processing

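The alternatives took the median of all probe sets of a gene or the mean of those past the filter, left out probe sets ending in _x_at or _s_at, normalized by quantile, median or lowess (span 0.3), added a pseudocount of 16, or changed the filter. Of 67 recomputed member values, 64 moved by less than the technical SD of 0.28, but many of them could hardly move. Median centring shifts all members alike and by little. Leaving out the _x_at and _s_at probe sets kept the same brightest probe set of every member that remained. For SAV1, YAP1, WWTR1, TEAD1 and AMOTL2 the mean of probe sets past the filter was the value of 1 probe set. LATS2 moved to 0.099 with the median and 0.39 with the mean of probe sets, and STK4 to 0.072 with the median, which left 0 members at least 2-fold higher under both ways of combining probe sets. WWTR1 and TEAD4, both near 0, changed sign under at least 1 alternative. The gap of kinases and scaffold over effectors stayed above 0 under the 9 alternatives, of which median centring could not change it. It was 0.11 with the median of probe sets. In alternatives added after seeing the data it was 0.12 without LATS2 and 0.070 over all probe sets together. The upstream genes at least 2-fold higher numbered 1 with the median of probe sets and 0 without the _x_at and _s_at probe sets. At 1.5-fold they were 4, and the targets 1 higher and 1 lower. With no filter, 177 genes in all were at least 2-fold lower, against 92 with it. Quantile normalization gave 213 higher and 117 lower, against 292 and 92. No paired analysis was possible because each group has 1 array.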
